A study of Homo sapiens with 9 samples.

Results

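Transcripts of the lysophosphatidic acid (LPA) axis were followed in TC-32, a human line of Ewing sarcoma with an EWSR1::FLI1 fusion, after ectopic expression of the transcription factor ETS1. The axis is represented here by 10 genes, taken by symbol from the 58381 genes of the deposited tables. They are the LPA-producing enzyme ENPP2, the receptors LPAR1, LPAR2, LPAR3, LPAR4 and LPAR6, the phosphatases PLPP1, PLPP2 and PLPP3, and the phosphatase-related PLPPR4. The set was selected on measured values, with the differences in counts between these same groups already known. The values below are therefore a description, and calls among the 10 genes support nothing further.

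LPA is a small signalling lipid of blood and tissue fluid. It is made outside the cell mainly by autotaxin, the secreted lysophospholipase D encoded by ENPP2, from lysophosphatidylcholine. It acts on G protein-coupled receptors of an EDG-related group (LPAR1, LPAR2, LPAR3) and a P2Y-related group (LPAR4, LPAR6), which drive phospholipase C and cyclic AMP signalling, and it is broken down at the cell surface by the lipid phosphate phosphatases PLPP1, PLPP2 and PLPP3. Serum, which the culture medium contained, is itself a source of LPA.

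There were 3 groups of 3 RNA-seq libraries. The RFP group carried the lentiviral vector pLOC with a red fluorescent protein. The ETS1-Low and ETS1-High groups carried an ETS1 cDNA in the same vector at a lower level and at a level like that of fusion-depleted cells, respectively. All groups were TC-32, so the fusion was present in each of them. Per the labels, transduced cells were selected with puromycin and sorted as single cells, and the ETS1 groups are single-cell clones. The number of clones per group, whether RFP is a clone, and whether libraries came from separate cultures are not in the labels. Clone and ETS1 level cannot be told apart. The p-values measure only the spread between libraries within groups, estimated jointly over the 3 groups, and this spread may be technical. Each library held between 39484704 and 46654734 expected counts.

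ETS1 checked the labels: RFP had 2.00 ± 0.17 CPM, ETS1-Low 10.6 ± 0.30 and ETS1-High 19.1 ± 0.81 (SD, n = 3 libraries, as for every mean below), and no library overlapped another group. FLI1, whose counts can include reads of the fusion, had 51.9, 60.6 and 70.8 CPM in the same order. CPM are counts scaled to a common library size with TMM factors, and are used here to compare a gene between groups. FPKM, which also divide by gene length, are used to compare genes with each other. They carry no TMM factors. On log2(FPKM + 1) the median log2 fold change of all genes was -0.08 in each ETS1 group against RFP. Small differences between groups in FPKM or FPKM sums are therefore not read as changes. The Ewing sarcoma markers CD99, NKX2-2, NR0B1, STEAP1, PRKCB, CCND1, CAV1 and LIPI were all present, with a lowest value of 14.3 FPKM in any library. Their summed level ran from 2638 to 2773 FPKM in RFP, 3238 to 3310 in ETS1-Low and 3519 to 3561 in ETS1-High. Most of this sum was CAV1, with means of 1692, 1941 and 2155 FPKM. The single markers did not all follow its order. NKX2-2 had 49.5, 52.1 and 49.4 FPKM, and NR0B1 220.5, 249.0 and 224.7 FPKM. Sums over markers of other cell types were low, but also differed between RFP and the ETS1 groups. The 4 immune markers summed to 0.70 to 1.14 FPKM in RFP, 0.13 to 0.18 in ETS1-Low and 0.11 to 0.32 in ETS1-High, with CD3E at 0 in all 9 libraries. The 3 endothelial markers summed to 0.16 to 0.25, 0.01 to 0.04 and 0.04 to 0.05 FPKM, and the 3 epithelial markers to 0.04 to 0.19, 0.62 to 0.75 and 1.39 to 1.61 FPKM. These differences came mostly from single genes. CD14 had means of 0.78, 0.14 and 0.16 FPKM, TEK 0.19, 0.01 and 0.01, and KRT5 0.04, 0.39 and 1.26. CDH5 (0.02, 0.01 and 0.04 FPKM) and EPCAM (0.09, 0.11 and 0.04 FPKM) did not follow their sums. The part of these markers in the results was not tested.

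A gene was called where the edgeR quasi-likelihood test, fitted on all 17235 genes that passed the filter on low counts, gave an adjusted p under 0.05 (Benjamini-Hochberg over all genes). Most of the transcriptome was called: 74.2% of genes in ETS1-High against RFP, 74.1% in ETS1-Low against RFP and 59.2% in ETS1-High against ETS1-Low. Of the 10 LPA genes, 8 were called in the first comparison, with 4 higher (37.0% of all genes) and 4 lower (37.2%). In the second 8 were called, with 5 higher (37.9%) and 3 lower (36.2%), and in the third 7, with 5 higher (29.9%) and 2 lower (29.3%). The libraries of the groups compared did not overlap for 9, 8 and 8 of them, against 75.5%, 76.0% and 63.2% of all genes. ENPP2, LPAR2, LPAR6 and PLPPR4 were called higher in both ETS1 groups (28.2% of all genes), and LPAR1 and LPAR4 lower in both (27.6%). A change of at least 2-fold was called in 5, 6 and 5 of the 10, where 21.0%, 20.6% and 9.74% of all genes had one. The median log2 fold change of the 10 genes was -0.38, 0.24 and 0.26, against -0.01, 0.01 and 0.00 over all genes. All 10 passed the filter, but not all through every group. ENPP2 passed it only through the ETS1 groups, PLPPR4 only through ETS1-High, and LPAR1 and PLPP3 only through RFP and ETS1-High. LPAR3 passed it through RFP and ETS1-Low, with only 1 ETS1-High library above the cutoff. For these genes, a difference between the passing groups and the rest was largely fixed in advance.

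**Figure D1:**
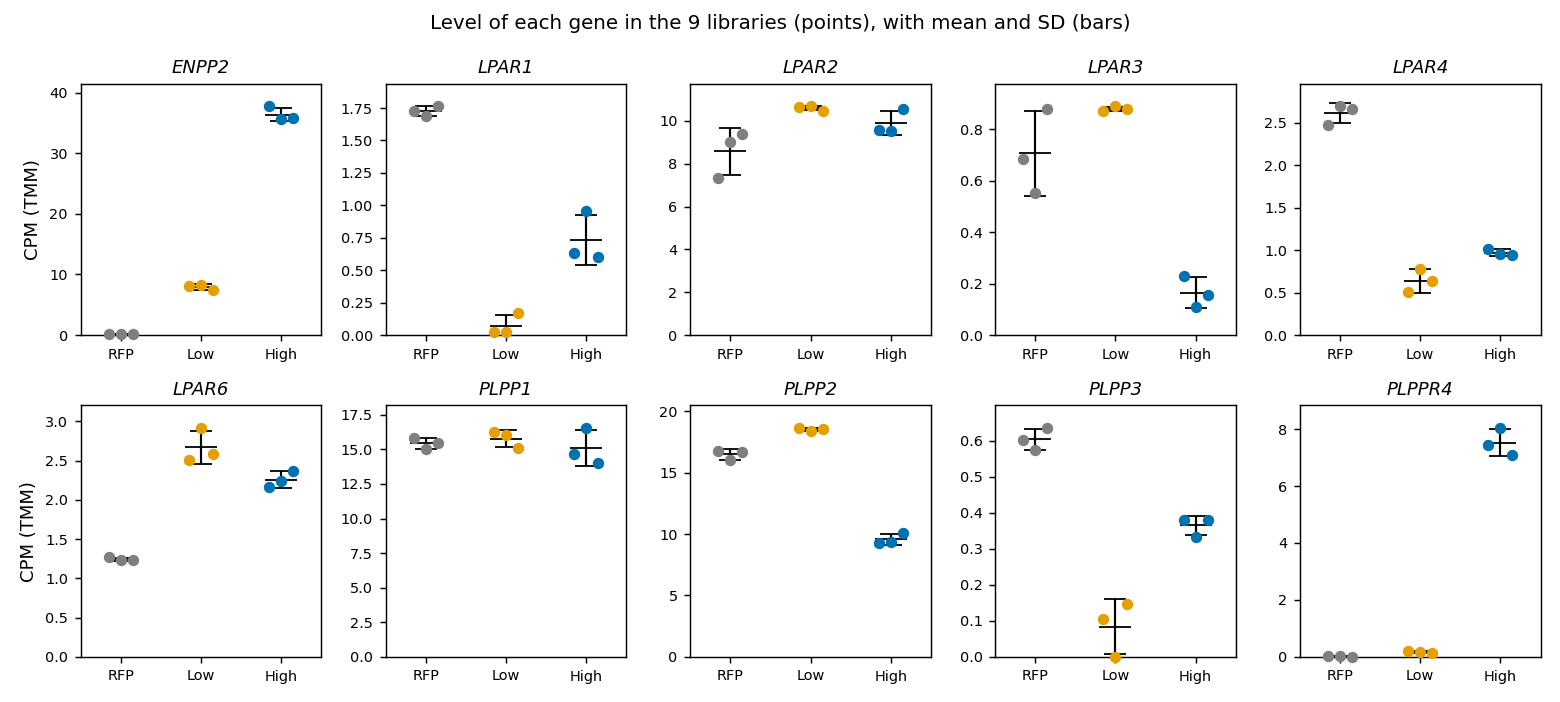
Level of each of the 10 genes in CPM with TMM scaling (vertical axes, each starting at 0 with its own range) in the RFP, ETS1-Low and ETS1-High groups; points are libraries and bars the mean and SD of 3. ENPP2 and PLPPR4 reach 36.4 and 7.52 CPM in ETS1-High, whereas the points of PLPP1 overlap in all 3 groups.

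ENPP2 encodes autotaxin, the main extracellular source of LPA. Its gene (ENSG00000136960.12; GRCh38 chromosome 8, 119557086 to 119673453, minus strand, GENCODE v44) was nearly silent in RFP and was the most abundant of the 10 transcripts per length in ETS1-High. RFP libraries 1 to 3 held 8, 9 and 10 counts, or 0.17, 0.19 and 0.20 CPM. ETS1-Low libraries held 8.17, 8.18 and 7.45 CPM, and ETS1-High libraries 37.7, 35.6 and 35.8 CPM. The 3 groups followed the order of ETS1 without overlap. In bulk RNA, a larger share of expressing cells and more RNA per cell cannot be told apart.

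The fitted change of ENPP2 was 7.58 on the log2 scale (SE 0.11; 191-fold) in ETS1-High against RFP and 5.38 (SE 0.14; 41.6-fold) in ETS1-Low against RFP. ETS1-High exceeded ETS1-Low by 2.20 (SE 0.06; 4.58-fold), while ETS1 itself differed between them by 0.85 (SE 0.07). For comparison with its chromosomal surroundings, the 49 other tested genes within 10 Mb had median changes of -0.18, -0.06 and -0.23 in the 3 comparisons. In FPKM, ENPP2 went from 0.08 ± 0.03 in RFP, the ninth of the 10 genes, to 3.19 ± 0.18 in ETS1-Low and 14.5 ± 0.48 in ETS1-High, where it stood first.

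The genes most like ENPP2 were sought among 12401 tested genes (mean count 100 or more), by the Euclidean distance between log2 CPM profiles over the 9 libraries, each centred on its own mean. The nearest were HGF (distance 1.24), which encodes hepatocyte growth factor, the long noncoding RNA FENDRR (1.26), the Wnt antagonist gene FRZB (1.41), the protein kinase inhibitor gene PKIA (1.84) and the integrin gene ITGA4 (1.97). HGF had 0.02 ± 0.02 CPM in RFP, 1.35 ± 0.30 in ETS1-Low and 6.73 ± 0.39 in ETS1-High. FRZB had 1.23 ± 0.11, 35.5 ± 0.85 and 93.6 ± 0.35 CPM. All of them stood lowest in RFP and highest in ETS1-High, an order that follows from their choice by likeness to ENPP2.

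Other enzymes form LPA by other routes. LIPI, a membrane-bound phospholipase that releases LPA from phosphatidic acid, had 20.3, 17.9 and 20.1 CPM in the RFP libraries. It had 60.1, 62.9 and 60.8 CPM in ETS1-Low and 58.4, 60.7 and 62.4 CPM in ETS1-High. The rise against RFP was 1.66 (SE 0.04; edgeR adjusted p 5.71e-36) in ETS1-Low and 1.64 (SE 0.04; edgeR adjusted p 7.31e-36) in ETS1-High. The ETS1 groups overlapped, with a difference of -0.02 (SE 0.04; edgeR adjusted p 0.713). LIPI at 46.7 ± 3.4 FPKM in ETS1-High stood above ENPP2 at 14.5 FPKM.

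AGK, the acylglycerol kinase of mitochondria, changed little, with rises of 0.16 and 0.23 in ETS1-High and ETS1-Low against RFP. LIPH, a relative of LIPI, had 3 to 12 counts in every library and was not tested, and PLA1A had 0 counts in all 9 libraries. Of the 12 LPA-forming enzymes listed beside ENPP2, 9 were tested. There were 5 higher and 3 lower in ETS1-High against RFP, 6 and 2 in ETS1-Low against RFP, and 2 and 3 between the ETS1 groups, with medians of 0.14, 0.23 and -0.07. Over all genes 37.0% were higher and 37.2% lower in the first comparison, 37.9% and 36.2% in the second and 29.9% and 29.3% in the third, and the counts of every list below stand against these shares. GPAT4 (listed as AGPAT6), a glycerol-phosphate acyltransferase and one of the most abundant of the list, went from 41.5 FPKM in RFP to 45.5 in ETS1-Low and 32.8 in ETS1-High, and its fitted change was 0.31 (edgeR adjusted p 5.44e-12) in ETS1-Low and -0.10 (edgeR adjusted p 0.00545) in ETS1-High against RFP.

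The receptors moved in different directions, and the libraries of the 3 groups overlapped in the receptor sum. LPAR2 was the most abundant receptor in every library, LPAR4 and LPAR1 fell in both ETS1 groups, LPAR6 rose in both, and LPAR3 fell in ETS1-High against RFP and against ETS1-Low. The summed FPKM of LPAR1 to LPAR6, with LPAR5 included, was 10.6 ± 1.02 in RFP, 10.3 ± 0.73 in ETS1-Low and 10.3 ± 0.60 in ETS1-High. Within that sum LPAR2 took 71.8 ± 1.17%, 80.4 ± 1.26% and 79.0 ± 1.04%. LPAR4 went from 12.1 ± 0.83% to 2.71 ± 0.42% and 4.55 ± 0.85%, and LPAR6 from 6.87 ± 0.67% to 12.5 ± 0.68% and 12.4 ± 1.32%. In each case the RFP libraries stood apart from both ETS1 groups.

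**Figure D2:**
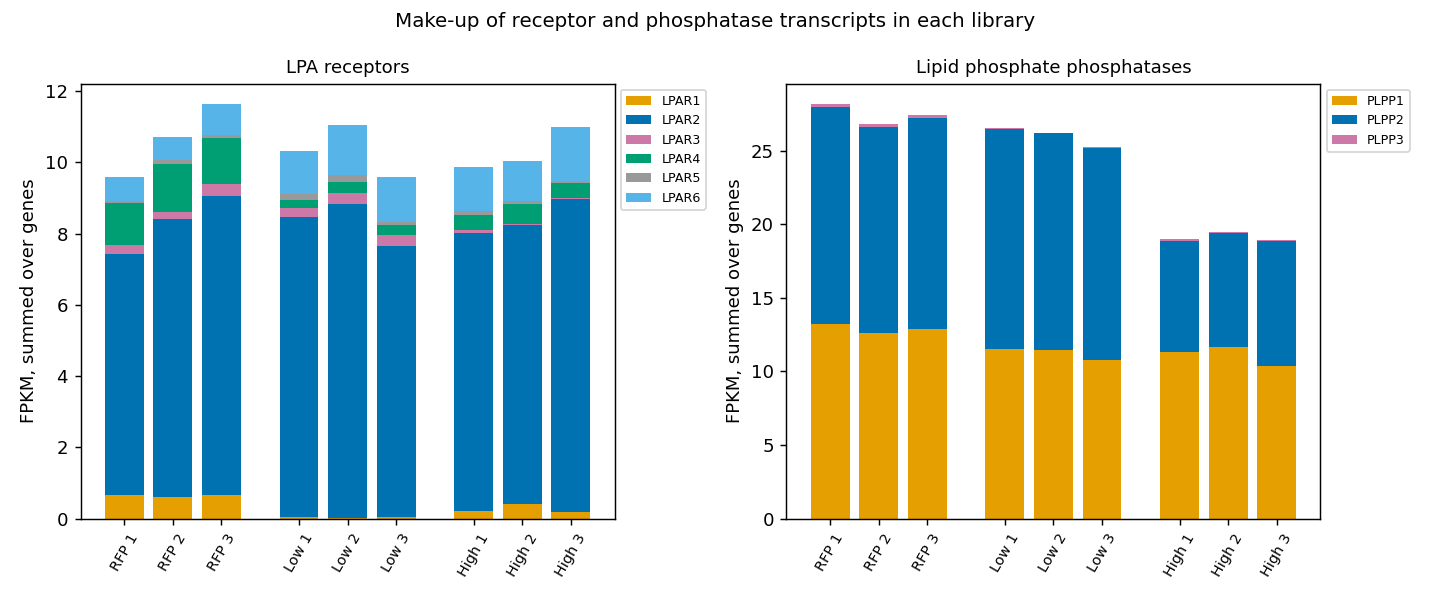
FPKM summed over the LPA receptor genes (left) and over PLPP1, PLPP2 and PLPP3 (right) in each of the 9 libraries, stacked by gene. The receptor sums overlap between groups with LPAR2 as the largest share, and the phosphatase sum is lower in the 3 ETS1-High libraries (18.96 to 19.5 FPKM) than in all others, with a smaller PLPP2 segment.

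LPAR2, which couples to several G protein classes, is encoded at chromosome 19, 19623655 to 19628930 (minus strand). It had 7.34, 9.0 and 9.40 CPM in RFP, 10.6, 10.7 and 10.5 CPM in ETS1-Low and 9.60, 9.54 and 10.6 CPM in ETS1-High. RFP replicate 1 was the lowest library, and the ETS1 groups overlapped. Its fitted rise was 0.30 (SE 0.08; edgeR adjusted p 0.00053) in ETS1-Low and 0.21 (SE 0.08; edgeR adjusted p 0.0158) in ETS1-High against RFP. The 330 other genes within 10 Mb had medians of 0.18 and 0.19 in the same comparisons, so LPAR2 exceeded its surroundings by 0.12 and 0.02. Neither call held on library totals without TMM factors (adjusted p 0.0561 and 0.255, edgeR).

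LPAR4, a P2Y-related receptor, had 2.47, 2.69 and 2.66 CPM in RFP. It had 0.50, 0.78 and 0.63 CPM in ETS1-Low and 1.02, 0.96 and 0.94 CPM in ETS1-High. The groups did not overlap, with ETS1-Low lowest. It fell by 2.01 on the log2 scale (SE 0.19; 4.03-fold lower) in ETS1-Low and by 1.42 (SE 0.18; 2.68-fold lower) in ETS1-High against RFP, and the 0.59 (SE 0.22) between the ETS1 groups did not pass without ETS1-Low replicate 1 (0.45, edgeR adjusted p 0.102). The median change of the 67 genes around it was -0.03, -0.02 and 0.12 in ETS1-Low against RFP, ETS1-High against RFP and ETS1-High against ETS1-Low.

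LPAR1, the receptor most studied in cell migration, was nearly lost in ETS1-Low. The RFP libraries held 83, 79 and 86 counts (1.72, 1.69 and 1.76 CPM), the ETS1-Low libraries 1, 1 and 7, and the ETS1-High libraries 25, 43 and 27 (0.63, 0.96 and 0.60 CPM). The groups did not overlap. LPAR1 was 22.8-fold lower in ETS1-Low than in RFP (log2 change -4.51, SE 0.36) and 2.34-fold lower in ETS1-High than in RFP (-1.23, SE 0.24). From the summed counts of 9 and 248, the first ratio has a 95% counting interval of 12.3- to 52.5-fold lower. Without ETS1-Low replicate 3, which holds 7 of those 9 counts, the change was -6.00, and the excess of ETS1-High over ETS1-Low went from 3.29 (SE 0.42) to 4.77.

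LPAR1 lies on chromosome 9 (110873263 to 111038470, minus strand). Its 78 neighbours within 10 Mb had medians of -0.42 (ETS1-Low against RFP), 0.48 (ETS1-High against ETS1-Low) and 0.05 (ETS1-High against RFP). LPAR1 differed from its surroundings by -4.10, 2.81 and -1.27 in these comparisons. Both LPAR1 and LPAR4 were called lower in both ETS1 groups than in RFP and lower in ETS1-Low than in ETS1-High, as were 7.94% of all genes.

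LPAR3 (chromosome 1, 84811602 to 84893206, minus strand) separated ETS1-High from the rest. It had 33, 26 and 43 counts in RFP, 33, 40 and 36 in ETS1-Low and 9, 5 and 7 in ETS1-High. The RFP and ETS1-Low libraries overlapped in CPM, and every ETS1-High library lay below both. The log2 change was -2.10 (SE 0.35; 4.28-fold lower) in ETS1-High against RFP, 0.31 (SE 0.26; edgeR adjusted p 0.286) in ETS1-Low against RFP and -2.41 (SE 0.34; 5.32-fold lower) between the ETS1 groups. The 96 genes around it had medians of 0.13, 0.18 and -0.11.

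LPAR6, the other P2Y-related receptor, went the opposite way to LPAR4. It had 1.27, 1.24 and 1.23 CPM in RFP, 2.51, 2.91 and 2.59 CPM in ETS1-Low and 2.16, 2.25 and 2.37 CPM in ETS1-High. Both ETS1 groups lay above RFP, by 1.1 (SE 0.15; 2.15-fold) and 0.86 (SE 0.16; 1.82-fold), and they differed from each other by -0.24 (SE 0.14; edgeR adjusted p 0.145). The gene (chromosome 13, 48389567 to 48444704, minus strand) lies within RB1, which is read from the other strand; their exons share 0% of bases, and RB1 changed by 0.05 and 0.02 in the same comparisons (edgeR adjusted p 0.233 and 0.587). Per length, LPAR4 stood above LPAR6 in RFP (1.29 ± 0.08 against 0.73 ± 0.12 FPKM) and below it in ETS1-Low (0.28 ± 0.05 against 1.29 ± 0.10 FPKM) and ETS1-High (0.47 ± 0.07 against 1.28 ± 0.20 FPKM).

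LPAR5, a further LPA receptor, was near the limit of detection with 6 to 21 counts per library, and its groups overlapped in every comparison. Its log2 changes were -0.09 (SE 0.48; edgeR adjusted p 0.880) in ETS1-High and 0.74 (SE 0.43; edgeR adjusted p 0.118) in ETS1-Low against RFP, so a difference was not detectable at this depth. Of 9 lysophospholipid receptor genes listed, LPAR5 included, 4 were tested, with 3 higher and 0 lower in ETS1-High against RFP, 2 and 1 in ETS1-Low against RFP, and 2 and 0 between the ETS1 groups (medians 0.68, 0.55 and 0.00), where 74.2%, 74.1% and 59.2% of all genes were called. S1PR3, a receptor of sphingosine 1-phosphate and the most abundant of them, had 33.8 FPKM in RFP, 21.9 in ETS1-Low and 54.3 in ETS1-High, and S1PR2 and S1PR5 were called higher in both ETS1 groups.

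The introduced factor binds DNA through a GGAA core, and the upstream sequences of 3 receptors are shown: LPAR4 and LPAR6, of 1 receptor group and called in opposite directions, and LPAR3, called lower than RFP in ETS1-High but not called in ETS1-Low. RefSeq windows (GRCh38.p14) were found for 8 of the 10 genes, but not for ENPP2 or PLPP1. The LPAR4 window is chrX:78747470-78747708 (plus strand), the LPAR6 window chr13:48413114-48413363 (minus strand) and the LPAR3 window chr1:84893207-84893456 (minus strand), each read 5′ to 3′ toward the RefSeq start and stopped where an annotated exon begins. Capitals mark GGAA on either strand (TTCC when read on the strand shown).
LPAR4 upstream window: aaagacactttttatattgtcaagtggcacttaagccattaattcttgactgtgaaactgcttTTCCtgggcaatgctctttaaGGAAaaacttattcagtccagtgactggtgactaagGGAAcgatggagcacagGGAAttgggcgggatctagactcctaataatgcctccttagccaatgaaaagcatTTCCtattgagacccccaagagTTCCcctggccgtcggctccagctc
LPAR6 upstream window: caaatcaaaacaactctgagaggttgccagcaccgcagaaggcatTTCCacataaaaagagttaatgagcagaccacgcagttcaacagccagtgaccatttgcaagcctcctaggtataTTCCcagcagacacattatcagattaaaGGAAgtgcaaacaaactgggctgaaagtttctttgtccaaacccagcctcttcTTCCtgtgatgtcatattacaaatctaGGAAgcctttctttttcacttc
LPAR3 upstream window: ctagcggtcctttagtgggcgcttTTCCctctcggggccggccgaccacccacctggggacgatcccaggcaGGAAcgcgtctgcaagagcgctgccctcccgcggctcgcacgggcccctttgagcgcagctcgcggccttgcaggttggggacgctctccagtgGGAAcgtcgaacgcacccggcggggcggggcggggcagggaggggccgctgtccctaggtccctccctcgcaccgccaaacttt

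The LPAR4 window held 6 GGAA matches, the LPAR6 window 5 and the LPAR3 window 3. The LPAR6 window lies inside the GENCODE v44 span of the gene, whose annotated start is at 48444704. Which LPAR6 start was used in these cells was not tested. Over 35116 RefSeq windows of 250 bases, 92.7% held at least 1, with a median of 3 and quartiles of 2 and 4. The windows of LPAR4, which fell, and LPAR6, which rose, both held more than the upper quartile. The longer core CCGGAA, searched on both strands and containing GGAA, was found in 14.5% of windows. It had 0 matches in the LPAR3, LPAR4 and LPAR6 windows and 2 in that of LPAR2, which lies wholly within annotated exons. The 6 windows of LPAR1, which are not shown, held 0 to 4 GGAA matches. The repeat GGAAGGAA, found in 3.06% of windows, had 0 matches in the windows of all 8 genes.

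PLPP1, PLPP2 and PLPP3 remove the phosphate of LPA and thereby end its action. PLPP2 and PLPP1 made up nearly all of their summed FPKM, and PLPP3 never more than 0.80% of it. The sum was 27.5 ± 0.69 FPKM in RFP, 26.0 ± 0.67 in ETS1-Low and 19.1 ± 0.30 in ETS1-High. ETS1-High lay below both other groups without overlap. The PLPP2 share went from 52.2 ± 0.06% in RFP and 56.6 ± 0.47% in ETS1-Low to 41.4 ± 3.00% in ETS1-High. The lower sum in ETS1-Low than in RFP was not seen in CPM. There PLPP1 had means of 15.8 in ETS1-Low and 15.4 in RFP, and PLPP2 18.5 and 16.5.

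PLPP2 (chromosome 19, 281040 to 291403, minus strand) had 16.8, 16.0 and 16.7 CPM in RFP, 18.6, 18.4 and 18.6 CPM in ETS1-Low and 9.29, 9.34 and 10.1 CPM in ETS1-High. The 3 groups did not overlap. It fell by 0.78 on the log2 scale (SE 0.06; 1.72-fold lower) in ETS1-High against RFP and by 0.95 (SE 0.06; 1.93-fold lower) against ETS1-Low, while the 260 genes around it had medians of 0.23 and -0.06. The rise of 0.17 (SE 0.06) in ETS1-Low against RFP was smaller than the local median of 0.31, and did not pass on library totals without TMM factors (0.03, edgeR adjusted p 0.602).

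PLPP1 (chromosome 5, 55424854 to 55534969, minus strand) was not called in any comparison of the edgeR fit with TMM factors. It had 15.8, 15.1 and 15.4 CPM in RFP, 16.3, 16.0 and 15.1 CPM in ETS1-Low and 14.6, 16.5 and 14.0 CPM in ETS1-High. All groups overlapped, with log2 changes of 0.03 (SE 0.06; edgeR adjusted p 0.661) in ETS1-Low and -0.03 (SE 0.06; edgeR adjusted p 0.622) in ETS1-High against RFP. On log2(FPKM + 1) it was called lower in both, at -0.18 in ETS1-Low, where the direction turned, and -0.20 in ETS1-High (limma adjusted p 0.00887 and 0.00507). It was also called lower in ETS1-High on library totals without TMM factors (-0.14, edgeR adjusted p 0.0402), and 24.9% of its exon bases are shared with MTREX on the other strand. The 45 genes around it had medians of -0.38 and -0.24, so PLPP1 stood above its surroundings by 0.41 and 0.21. MTREX (listed as SKIV2L2) itself had -0.27 and -0.36, and its part in the PLPP1 values was not tested.

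PLPP3, the phosphatase best known from blood vessels, had 29, 27 and 31 counts in RFP, 4, 0 and 6 in ETS1-Low and 15, 15 and 17 in ETS1-High. The groups did not overlap, and ETS1-High lay between the other two. The fall in ETS1-Low against RFP was 2.85 on the log2 scale (SE 0.46; 7.23-fold lower), and it became -2.23 without ETS1-Low replicate 2 and -3.56 without ETS1-Low replicate 3. ETS1-High exceeded ETS1-Low by 2.13 (SE 0.50), which became 1.5 and 2.84 without the same libraries. The change of -0.73 (SE 0.34) in ETS1-High against RFP did not pass (edgeR adjusted p 0.0535).

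The gene next to PLPP3 showed the same low point in ETS1-Low, and was singled out after its values were seen. PRKAA2, which encodes a catalytic subunit of the energy sensor AMPK, starts 13 bases from the annotated start of PLPP3 on chromosome 1 (56645314 and 56645301) in GENCODE v44 and is read in the other direction. The RefSeq start of PLPP3, at 56579563, lies 65.8 kb from PRKAA2, and which start was used in these cells was not tested. It had 571, 656 and 619 counts in RFP, 5, 11 and 7 in ETS1-Low and 645, 619 and 687 in ETS1-High, or 12.8 ± 1.07, 0.18 ± 0.06 and 15.2 ± 1.32 CPM. PRKAA2 thus changed by -6.09 in ETS1-Low (edgeR adjusted p 3.62e-36) and by 0.24 in ETS1-High (edgeR adjusted p 0.00287) against RFP. The 103 genes within 10 Mb of PLPP3 had medians of 0.11 and -0.05 in the same comparisons. A further 10.9% of the PLPP3 exon bases overlap ENSG00000284686 on the same strand.

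**Figure D3:**
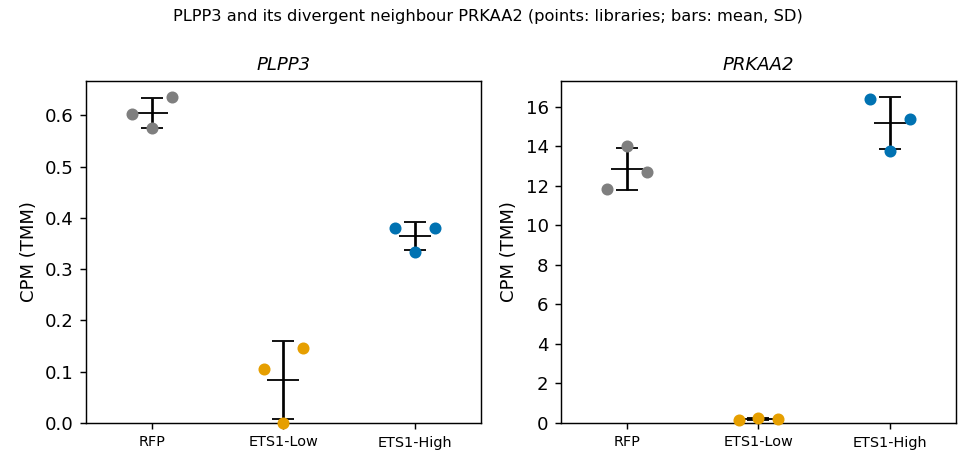
Levels of PLPP3 and its neighbour PRKAA2, divergent by the GENCODE starts, in CPM with TMM scaling (vertical axes from 0, with separate ranges) in the 3 groups; points are libraries and bars the mean and SD. Both genes are lowest in the 3 ETS1-Low libraries, at 0.08 and 0.18 CPM on average.

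PLPPR4 encodes a neuronal membrane protein related to the PLPP enzymes but without their phosphatase activity, known for modulating LPA signalling at synapses. The gene (ENSG00000117600.12; chromosome 1, 99264292 to 99309590, plus strand) held 1, 1 and 0 counts in RFP, 8, 8 and 6 in ETS1-Low and 293, 361 and 317 in ETS1-High. The groups did not overlap, and nearly all of the signal lay in ETS1-High. From the summed counts of 971 and 2, ETS1-High exceeded RFP by a ratio of 541 (95% counting interval 149 to 4475), and from 22 and 2 counts ETS1-Low exceeded RFP by 12.8 (3.14 to 112). ETS1-High exceeded ETS1-Low by 42.3 (27.8 to 67.9). These intervals cover counting error only.

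PLPPR4 reached 1.64 ± 0.11 FPKM in ETS1-High, above LPAR6 at 1.28 and below PLPP2 at 7.92. The 89 genes within 10 Mb had medians of -0.04, 0.17 and -0.19 in ETS1-High against RFP, ETS1-Low against RFP and ETS1-High against ETS1-Low. By the same distance as above, the genes most like PLPPR4 were NEB (0.87), which encodes the muscle protein nebulin, COLEC12 (1.84), BHLHE22 (1.85), MAGEA3 (2.01) and TGM2 (2.36). NEB had 0.42 ± 0.12 CPM in RFP, 1.76 ± 0.28 in ETS1-Low and 48.4 ± 3.74 in ETS1-High. Of the 4 other PLPPR genes, PLPPR2 and PLPPR3 (listed as LPPR3) were tested, and both were called lower in both ETS1 groups (medians -0.64 in ETS1-High and -1.08 in ETS1-Low).

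**Figure D4:**
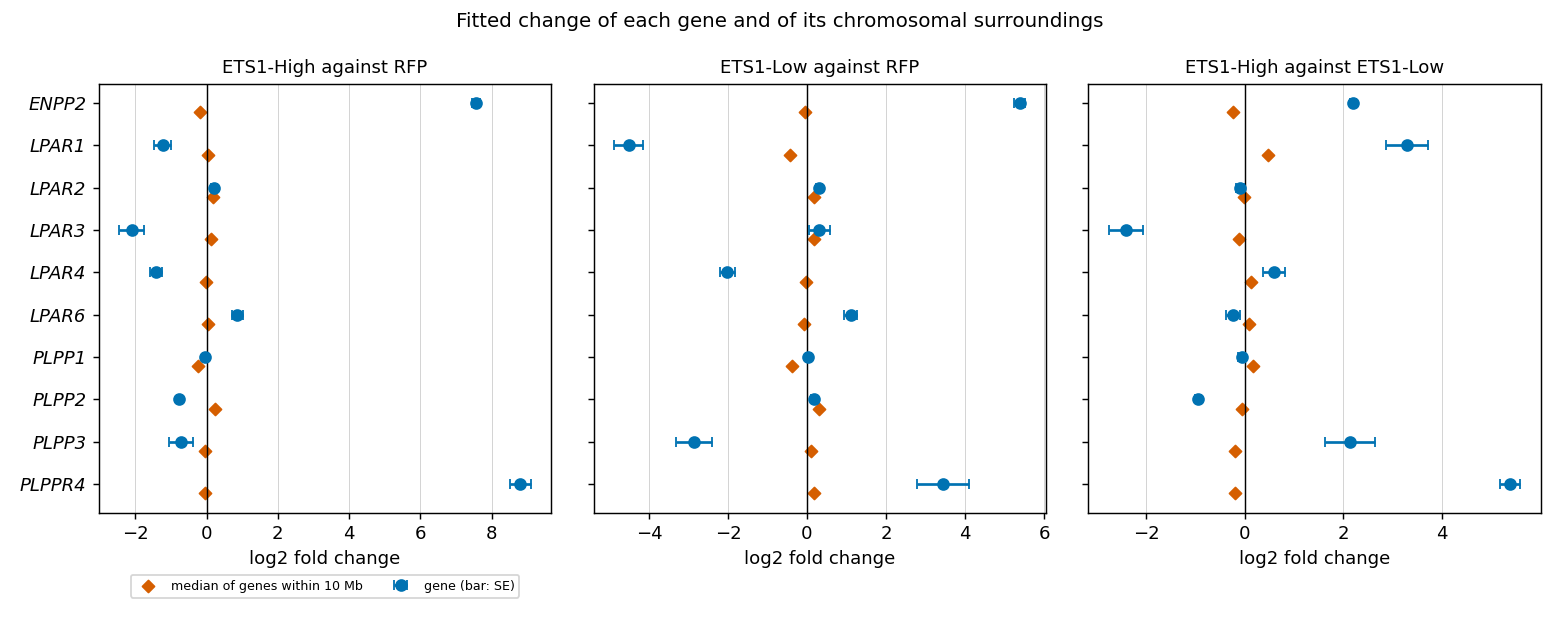
Fitted log2 fold change of each of the 10 genes (circles, bars are the SE) and median log2 fold change of the tested genes within 10 Mb (diamonds) in the 3 comparisons, on horizontal axes with separate ranges. The local medians lie between -0.42 and 0.48, whereas ENPP2 reaches 7.58 and PLPPR4, fitted against 2 counts in RFP, 8.81 in ETS1-High against RFP.

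Ordered by FPKM, the RFP libraries ran PLPP2, PLPP1, LPAR2, LPAR4, LPAR6, LPAR1, LPAR3, PLPP3, ENPP2 and PLPPR4, where LPAR6 overlapped LPAR1 and LPAR3 overlapped PLPP3. In ETS1-Low the order was PLPP2, PLPP1, LPAR2, ENPP2, LPAR6, LPAR3, LPAR4 and PLPPR4, with LPAR1 and PLPP3 at 0.03 FPKM each, and LPAR3 and LPAR4 overlapped, as did the last 3 genes. In ETS1-High it was ENPP2, PLPP1, LPAR2, PLPP2, PLPPR4, LPAR6, LPAR4, LPAR1, PLPP3 and LPAR3, where LPAR2 overlapped PLPP2 and LPAR4 overlapped LPAR1. LPAR2 kept the third place in every group, and ENPP2 moved from the ninth to the fourth and the first.

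Among the G protein genes that act with these receptors, GNAS, which encodes the stimulatory subunit, had 668.7 FPKM in RFP, 537.2 in ETS1-Low and 807.8 in ETS1-High. It changed by -0.21 in ETS1-Low and 0.34 in ETS1-High against RFP, and both were called. GNAI2, which encodes an inhibitory subunit, had 77.9, 82.0 and 101.6 FPKM in the same order of groups.

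Genes of the serum response factor (SRF) and MRTF pathway were tested for 14 of 15 listed. There were 8 higher and 5 lower in ETS1-High against RFP (median 0.41), 5 and 7 in ETS1-Low against RFP (-0.17) and 9 and 3 between the ETS1 groups (0.50), where 74.2%, 74.1% and 59.2% of all genes were called. By the mean over all 9 libraries the most abundant were FOS, with 148.1, 120.5 and 93.0 FPKM in RFP, ETS1-Low and ETS1-High, CNN2 with 75.5, 83.1 and 87.7 FPKM, and CCN2 (listed as CTGF) with 89.5, 45.3 and 72.2 FPKM. FOS and CCN2 fell in both ETS1 groups against RFP, and CNN2 rose in both. CCN1 (listed as CYR61), named after its values were seen, had 14.9 ± 0.59 FPKM in RFP, 41.5 ± 1.49 in ETS1-Low and 106.0 ± 4.09 in ETS1-High, the highest of the list there.

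Of 11 other LPA-removing enzymes, all tested, 4 were higher and 4 lower in ETS1-High against RFP (median 0.00), 4 and 5 in ETS1-Low against RFP (-0.03), and 5 and 3 between the ETS1 groups (0.10), where 74.2%, 74.1% and 59.2% of all genes were called. AGPAT1, an acyltransferase that turns LPA into phosphatidic acid and the most abundant of them, had 62.4, 55.3 and 56.3 FPKM and was not called in any comparison (edgeR adjusted p 0.387, 0.444 and 0.943 in ETS1-High against RFP, ETS1-Low against RFP and ETS1-High against ETS1-Low). AGPAT2, of the same family, changed against RFP by 0.14 (ETS1-High) and -0.35 (ETS1-Low), both called. AGPAT5 fell by 0.55 in ETS1-High against RFP, with 0.05 in ETS1-Low (edgeR adjusted p 0.147). Of 11 autotaxin relatives and lysophosphatidylcholine-handling genes, 8 were tested. There were 2 higher and 5 lower in ETS1-High against RFP (median -0.50), 2 and 4 in ETS1-Low against RFP (-0.21), and 2 and 4 between the ETS1 groups (-0.09), against the same shares of all genes. LPCAT1, which consumes lysophosphatidylcholine, the substrate of autotaxin, fell from 61.0 FPKM in RFP to 33.9 in ETS1-Low and 32.9 in ETS1-High. LPCAT4 fell by 0.43 against RFP with ETS1-High and rose by 0.18 with ETS1-Low, and LPCAT3 rose by 0.17 in ETS1-High, with 0.08 in ETS1-Low (edgeR adjusted p 0.0829).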

How the data were processed

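RNA-seq counts and FPKM of 9 TC-32 libraries were used, grouped by sample title (column letters L and H read as Low and High). The authors deposited RSEM expected counts, which are estimates that divide shared reads (9.0% to 10.3% of values per library were not whole), and RSEM FPKM, scaled to gene length and library size, per the file headers. The submitters' processing notes name cutadapt 4.4, STAR 2.7.3, featureCounts, Subread 2.0.3 and limma 3.38.3 and the build GRCh38, with no role given. The RSEM version, the annotation and the use of strand are not given in the sources used here, and 0 columns lacked a library.

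Expected counts were rounded, filtered with filterByExpr and tested by the edgeR quasi-likelihood test (edgeR 4.0.16, R 4.3.3, robust, TMM) in a single fit of all 9 libraries, with Benjamini-Hochberg adjustment over 17235 genes. The fit was tested on data simulated for ETS1-High against RFP (16876 genes tested), with 50 genes changed at each log2 size. Of each 50, 46 were called at -2, 43 at -1, 46 at 1 and 50 at 2, with 13 false calls. Far fewer genes were changed there than the 74.2% called between the measured libraries of these groups. TMM scaling and the rate of false calls under so broad a change were not tested. The SE is the log2 fold change divided by the square root of F. Alternatives used DESeq2 1.42.0, limma 3.58.1 on log2(FPKM + 1) or log2(FPKM + 0.1), other filters and scalings, the replicate block and leaving out each library. Replicates differed by more than sampling noise (chi-square per gene 2.66 to 5.19), and each was counted once. This excess does not show that the libraries came from separate cultures.

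The 10 genes and the 8 lists (94 symbols, of which 6 matched through newer names and 78 genes were tested) were chosen with earlier results of these data known. The counts of 1 list and 1 of its genes are not reported here. The text names the 10 genes, ETS1, FLI1, LPAR5, LIPH, LIPI, PLA1A and AGK, the 3 most abundant tested genes per list, (by the mean FPKM over all libraries, save the gene not reported), and the 5 genes nearest in profile to ENPP2, PLPPR4 and LPAR2. PRKAA2, SVEP1, ZNF483, TXN, ITM2B, RB1, MTREX and CCN1 were named after their values were seen. Positions are those of GENCODE v44 by gene identifier, found for 17076 of the tested genes. Counting intervals are exact binomial at 95%.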

Additional observations from a re-analysis of the deposited data

Results flagged for a closer look

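The changes against RFP differed between the ETS1 groups, by the edgeR test of ETS1-High against ETS1-Low, for 7 of the 10 genes. The log2 differences were 2.20 for ENPP2, 5.38 for PLPPR4, 3.29 for LPAR1, 2.13 for PLPP3 and 0.59 for LPAR4, all higher in ETS1-High. They were -2.41 for LPAR3 and -0.95 for PLPP2, both lower in ETS1-High. Since 59.2% of all genes were called in this comparison, their number says nothing particular about the LPA axis. PLPP2 was called in opposite directions against RFP, at -0.78 in ETS1-High and 0.17 in ETS1-Low.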

How the results depend on the processing

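The number of genes called stayed within 1.5 times under every alternative (11154 to 13587 in ETS1-High against RFP, 11179 to 13437 in ETS1-Low against RFP, 7385 to 10337 between the ETS1 groups). With at least 10 counts required in every library, 5 of the 10 genes could be tested, and 4, 4 and 2 of them were called. Of 554 values of the 10 genes, 519 kept their direction and side of the threshold, 22 lost the call, 10 gained it and 3 reversed. The reversed values were those of PLPP1 in ETS1-Low against RFP with limma, at -0.18 on log2(FPKM + 1), -0.20 on log2(FPKM + 0.1) and -0.18 on log2(FPKM + 1) with no filter; the cause was not tested.

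The small changes of LPAR2 and PLPP2 lost their calls under several alternatives, though not with DESeq2 size factors in edgeR. LPAR2 in ETS1-High against RFP lost its call with DESeq2 (adjusted p 0.0617), without RFP replicate 1 (edgeR adjusted p 0.235) and without ETS1-High replicate 3 (edgeR adjusted p 0.104). PLPP2 in ETS1-Low against RFP lost its call with DESeq2 (adjusted p 0.0536) and on log2(FPKM + 1) (limma adjusted p 0.542). On log2(FPKM + 1) LPAR2 lost its calls in ETS1-High and ETS1-Low against RFP (limma adjusted p 0.384 and 0.272). With no filter on these values, PLPP3 and LPAR4 lost their calls between the ETS1 groups (limma adjusted p 0.0569 and 0.0729). PLPP3 in ETS1-High against RFP gained one with DESeq2 size factors (edgeR adjusted p 0.0495), with the 2 groups alone (0.0272) and without ETS1-Low replicate 2 (0.0397). The other gained calls were those of PLPP3 and PLPP1 in the same comparison on FPKM and on library totals. On log2(FPKM + 1), fold changes of low genes were compressed, with PLPPR4 in ETS1-Low against RFP at 0.04 (limma adjusted p 0.457). Library totals without TMM factors, an alternative chosen after seeing the data, moved the median of all genes by -0.10 and -0.13 against RFP, and higher genes made up 40.6% and 39.2% of those called in ETS1-High and ETS1-Low, against 49.8% and 51.2%; on log2(FPKM + 1) they made up 39.4% and 38.7%.

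Libraries with the same replicate number did not deviate together (r from -0.13 to 0.14 over 9 pairs, against -0.14 to 0.15 over 18 pairs of different number), and 1 library correlated best with its own number. With the replicate number as a block, 12701, 12729 and 10122 genes were called, and 8, 8 and 7 of the 10. Depth limits LPAR5, PLPP3 and LPAR3, which rest on under 50 counts per library. LPAR1 and LPAR4 also had under 50 counts in every library of both ETS1 groups. The same held for PLPPR4 in RFP and ETS1-Low, and for ENPP2 in RFP.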

Other observations

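Genes of sphingosine 1-phosphate metabolism, a related lipid pathway, were tested for 8 of 10 listed. There were 5 higher and 2 lower in ETS1-High against RFP (median 0.50), 5 and 1 in ETS1-Low against RFP (0.49), and 2 and 2 between the ETS1 groups (0.01), where 74.2%, 74.1% and 59.2% of all genes were called. CERS2, a ceramide synthase and the most abundant, was not called in any comparison (edgeR adjusted p 0.429, 0.931 and 0.527), whereas CERS5 rose against RFP by 0.77 (ETS1-High) and 0.69 (ETS1-Low). SGPL1, the lyase that ends the pathway, fell by 0.11 in ETS1-High, with 0.04 in ETS1-Low (edgeR adjusted p 0.301).

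The neighbours of LPAR1 were looked at after its values were known. SVEP1, which encodes an extracellular matrix protein, had 1.12 CPM in RFP, 0.05 in ETS1-Low and 0.05 in ETS1-High, and ZNF483 had 8.20, 2.35 and 2.55 CPM. Both were lower in both ETS1 groups, with no call between the ETS1 groups (edgeR adjusted p 0.880 and 0.515), where LPAR1 had 3.29. For SVEP1, with 2, 2 and 2 counts in ETS1-Low and 1, 3 and 3 in ETS1-High, counts were too low to show a difference there. TXN, another neighbour, had 142.3 CPM in RFP, 96.9 in ETS1-Low and 140.1 in ETS1-High, and was called against RFP in ETS1-Low (edgeR adjusted p 8.47e-22) but not in ETS1-High (edgeR adjusted p 0.519). Next to LPAR6, ITM2B stood at 57.6 CPM in the RFP group, 144.7 with ETS1-Low and 103.2 with ETS1-High.

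The profiles nearest to LPAR2 were those of NDUFAF7 (distance 0.20), HECTD3 (0.21), MYRF (0.21), STON1 (0.21) and FAM131A (0.22), over 9 libraries.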
